A study of Gallus gallus with 48 samples.

Results

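Eph receptors of the B class (EPHB1, EPHB2, EPHB3 and EPHB6) and their ligands, the ephrin-B proteins (EFNB1 and EFNB2), were examined in the retina and retinal pigment epithelium (RPE) of chicks that wore a defocusing lens over 1 eye. The 6 genes were chosen by symbol in the array's annotation, which gave them 13 of the 38382 probe sets tested. The family was chosen from results of these same arrays: a probe set of EPHB6 had passed the test after 6 hours of a -15 dioptre (D) lens and for the change from 6 hours to 3 days of that lens. Both contrasts, the lens sign at 6 hours and all -15 D values of that probe set are therefore given as description, with no p-value.

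The series held 48 arrays from 24 White Leghorn birds, which had a lens of -15 D or +15 D placed over 1 eye at 1 week of age and kept there for 6 hours or 3 days. Each of these 4 conditions had 6 birds, and the other eye of the same bird, which had no lens, was its control, so there were 8 groups of 6 arrays. All birds were raised on a 12-hour light cycle, and retina and RPE were collected together. Each condition was a separate set of birds, so a difference between conditions and a difference between sets of birds cannot be told apart, whereas lens and control eyes were compared within birds.

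Eph receptors are tyrosine kinases of the cell surface, and ephrin-B ligands are also membrane proteins, so the pair acts where cells touch. Binding starts a signal in the cell that bears the receptor, called forward, and another in the cell that bears the ligand, called reverse. In the developing retina of chick and mouse, EphB receptors and ephrin-B ligands are laid out in opposed gradients along the dorsal to ventral axis, and they guide the axons of ganglion cells to their targets. In mature neurons EphB receptors also act at synapses.

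Values are log2 signals, and a difference is the log2 signal of the lens eye minus that of the control eye of the same bird. The signals ran from 1.88 to 14.8 and the array medians from 6.38 to 6.50. Background was taken as 4.50, the 95th percentile of the 541 probe sets for viral sequences. Of the marker genes of the retina, 17 of 26 were found by symbol and all 17 were above background. Of 13 RPE and pigment genes 12 were above it, and the pigment transporter SLC45A2 was not. Genes of neighbouring tissues were detected as well, at 10 of 12 for choroid and sclera, 9 of 12 for vessels and muscle, 10 of 11 for blood and immune cells and 12 of 12 for the lens of the eye. The 2 eyes of 3 birds differed widely over all probe sets: birds 3 and 5 of the -15 D, 6 hour set and bird 1 of the +15 D, 3 day set. In such mixed tissue, fewer cells of a type and less RNA per cell cannot be told apart.

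All 13 member probe sets had a mean signal above background. The sets of a gene are told apart here by their brightness. EPHB1 was measured by a set with a mean of 7.85 and another at 6.75. EPHB2 had 3 probe sets, at 11.94, 7.76 and 6.85, the last of a type that can match more than 1 transcript. EPHB3 had a single set, at 6.86. EPHB6, which RefSeq also lists under the names CEK9 and EPHB5, had a set at 9.65 and another at 4.66. EFNB1 had 4 sets, at 9.61, 9.51, 8.30 and 6.38, and EFNB2 had 1, at 5.30. Signals of different probe sets depend on their probes, so the genes were not ranked by level. Only the dimmer EPHB6 set fell below background on any array, on 14 of 48.

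With its dimmer probe set, EPHB6 gave the widest change of the family with the duration of the lens. This was 0.75 for -15 D, whose values chose the family, and 0.35 for +15 D. In the +15 D birds this set was lower in the lens eye in 6 of 6 after 6 hours and higher in 5 of 6 after 3 days. In the -15 D birds, which chose the family, it was lower in 6 of 6 and then higher in 6 of 6. In mammals the EPHB6 protein lacks kinase activity and is thought to act through other receptors to which it binds. The change is described for the -15 D birds, in which it led to the choice of this family, and tested in the +15 D birds.

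After 6 hours of -15 D, the dimmer EPHB6 set read 5.03, 3.95, 4.18, 4.24, 4.49 and 5.78 in the control eyes of birds 1 to 6. It read 4.23, 3.86, 3.54, 3.90, 4.03 and 5.09 in their lens eyes. The lens eye was the lower in every one of the 6 pairs, although the groups of eyes overlapped because birds differed more than the eyes of a bird. The differences were -0.80, -0.09, -0.65, -0.34, -0.46 and -0.69, with a mean of -0.50 (SD 0.26, n = 6) from 4.61 in control to 4.11 in lens eyes. The signal was below background in 4 control and 5 lens eyes, so the size of this difference is uncertain. It was the only 1 of the 13 members past the limma threshold in this condition, beside 0.0391% of all probe sets tested. Since this contrast chose the family, nothing is read from that count. When 1 bird was left out the set passed only without bird 2, it did not pass without the block for birds, and without the widely differing birds 3 and 5 the difference was -0.48 and did not pass.

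Behind the -15 D lens for 3 days, the same EPHB6 set read 4.47, 4.88, 4.65, 4.81, 4.82 and 4.62 in control eyes and 4.90, 5.08, 5.09, 4.85, 5.08 and 4.73 in lens eyes. The lens eye was now the higher in all 6 pairs, with differences of 0.43, 0.20, 0.45, 0.03, 0.26 and 0.10. The mean difference was 0.25 (SD 0.17, n = 6), and the groups overlapped. The change from 6 hours to 3 days of -15 D was 0.75 (SE 0.12), given as description. The members past the threshold for this change were 1 of 13, the dimmer EPHB6 set, beside 0.0104% of all probe sets, and the rule for choosing the family used it. The set passed in 4 of 12 omissions of a bird (birds 2 and 4 at 6 hours, 4 and 6 at 3 days), and the change was 0.73 without the widely differing birds, where it did not pass.

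With the +15 D lens the 2 durations differed in the same direction but by less. After 6 hours of +15 D the dimmer EPHB6 set lay at 4.30, 4.80 and 5.35 in control eyes and at 4.20, 4.70 and 4.95 in lens eyes (lowest, median and highest of 6). All 6 birds had the lens eye lower, by -0.22 on average (SD 0.15, 95% interval -0.39 to -0.050, limma adjusted p = 0.660). After 3 days of +15 D the control eyes lay at 4.47, 4.64 and 4.76 and the lens eyes at 4.49, 4.79 and 4.93. There 5 of 6 birds had the lens eye higher, with bird 1 at -0.27 and a mean of 0.13 (SD 0.22, adjusted p = 1.00), or 0.21 without bird 1, whose eyes differed widely. The change with duration of +15 D was 0.35 (SE 0.12, 95% interval 0.11 to 0.59), with an unadjusted limma p of 0.00683 and an adjusted p of 1.00. It did not pass, as no probe set on the array did in this comparison (0%), while 3.47% were at unadjusted p under 0.05. The difference between the lens signs at 3 days was 0.12 for this set, given as description.

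**Figure D1:**
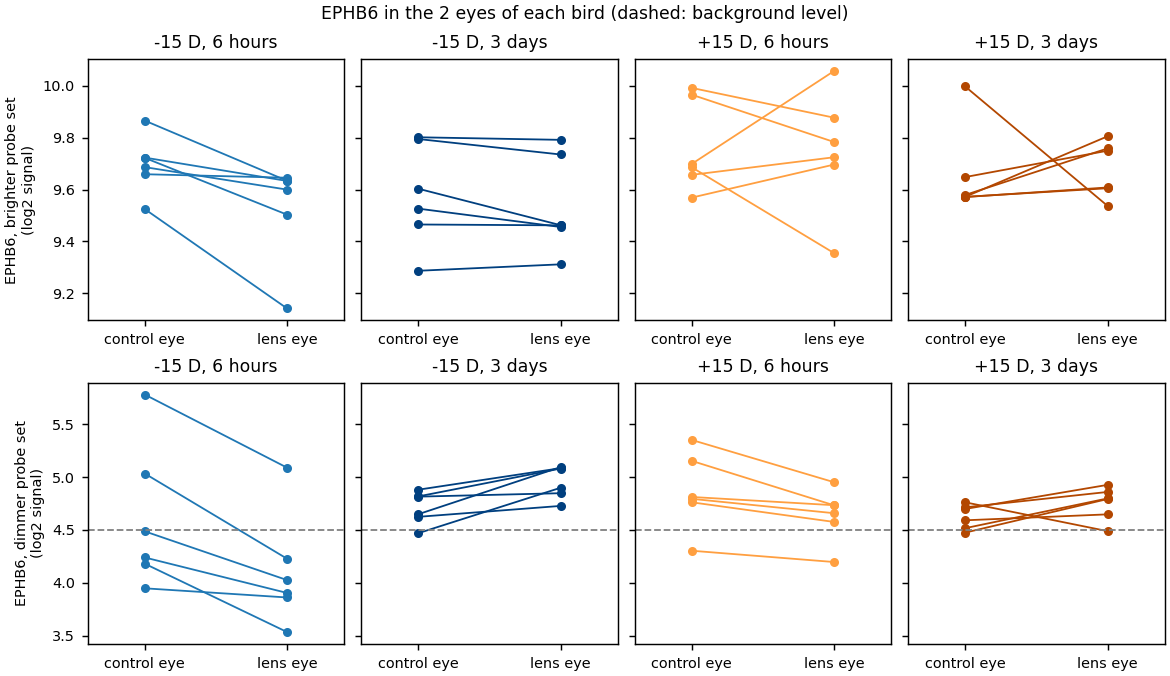
Log2 signal of the 2 EPHB6 probe sets in the control and the lens eye, with a line joining the eyes of 1 bird and 6 birds in each of the 4 conditions. With the dimmer probe set every line slopes down at 6 hours, and all but 1 slope up at 3 days.

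The brighter EPHB6 set was also lower after 6 hours of -15 D, in the birds that chose the family, but not after 6 hours of +15 D. It was not higher after 3 days of -15 D. After 6 hours of -15 D its differences were -0.23, -0.22, -0.38, -0.09, -0.01 and -0.09, which were below 0 in all 6 birds with a mean of -0.17 (SD 0.13), from 9.70 to 9.53. Its mean after 3 days of -15 D was -0.04 (SD 0.06, adjusted p = 0.862), where the dimmer set was above 0 in all birds. With +15 D it was -0.01 at 6 hours (SD 0.25, adjusted p = 0.979, below 0 in 3 of 6 birds) and 0.02 at 3 days (SD 0.25, adjusted p = 1.00). Its change with duration was 0.13 for -15 D and 0.03 for +15 D (95% interval -0.19 to 0.26). The interval of the +15 D change for the dimmer set, from 0.11, overlaps with it, and the 2 probe sets were not tested against each other.

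An RNA quality measure, the actin 3'/5' ratio, moved with the dimmer EPHB6 set between conditions. The actin 3'/5' signal ratio, which is raised in degraded RNA, was lower in 6 of 6 lens eyes after 6 hours of -15 D (-0.16, SD 0.20) and higher in 6 of 6 after 3 days of -15 D (0.32, SD 0.14). With +15 D it was -0.19 at 6 hours (SD 0.32) and -0.02 at 3 days (SD 0.37), with 3 of 6 birds below 0 at each time. Over 24 birds its difference and that of the dimmer EPHB6 set had Pearson r = 0.49 and Spearman rho = 0.55, given with no p because the birds that chose the family are among them. Within the conditions, of 6 birds each, r lay between -0.053 and 0.21. Over all birds but the 2 farthest from the median ratio it was 0.62. With the ratio as a covariate, added after the values were seen, the EPHB6 difference was -0.49 after 6 hours of -15 D and its change with duration 0.71, and neither passed. Without the covariate these values were -0.50 and 0.75. The actin difference had 1 sign in all birds of each -15 D set, so it cannot be told apart from duration there. After 6 hours of -15 D the GAPDH 3'/5' ratio differed by 0.02 (SD 0.07, above 0 in 4 of 6 birds). After 3 days it differed by 0.10 (SD 0.07, 6 of 6). With +15 D it was -0.06 at 6 hours and -0.08 at 3 days. Over 24 birds the GAPDH ratio had r = 0.11 with the dimmer EPHB6 set.

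EPHB1, a receptor of retinal and other neurons that in mice steers some ganglion cell axons to the same side of the brain, differed little. Its brighter probe set was higher in the lens eye in 21 of 24 birds, among them 12 of 12 with a -15 D lens. The mean differences were 0.12 at 6 hours and 0.10 at 3 days behind -15 D and 0.13 and 0.15 behind +15 D. The limma adjusted p was 0.662 for +15 D at 6 hours, 0.495 for -15 D at 3 days and 1.00 for +15 D at 3 days, and lens and control groups overlapped in all 4 conditions. The dimmer set had means of 0.15, 0.13, 0.16 and 0.04 in the same order and was above 0 in 17 of 24 birds. The EPHB1 means were thus above 0 in all 4 conditions with both sets, and none of the 3 tested conditions passed with either.

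EPHB2, a receptor of ventral retina in the embryo and of excitatory synapses later, was lower behind the -15 D lens after 3 days with its brightest probe set, without passing the test. That set lay at 11.87, 12.05 and 12.15 in control eyes and 11.76, 11.85 and 12.01 in lens eyes (lowest, median and highest). All 6 birds had the lens eye lower although the groups overlapped, with a mean difference of -0.17 (SD 0.10, 95% interval -0.30 to -0.038, limma adjusted p = 0.209). With +15 D at 3 days the mean was 0.03 (SD 0.13), and the difference between the lens signs was -0.20 (adjusted p = 0.512, unadjusted 0.0379). After 6 hours the means were -0.07 with -15 D and 0.06 with +15 D. After the same 3 days of -15 D the second EPHB2 set was at 0.07, above 0 in 5 of 6 birds. The dimmest was at -0.03, below 0 in 5 of 6 birds (median -0.12), with bird 1 at 0.61, and its mean without that bird was -0.16. In these birds the actin 3'/5' ratio was raised in the lens eye (0.32, 6 of 6 birds). Over 24 birds the brightest EPHB2 set and that ratio had r = -0.50 (permutation p = 0.0123, adjusted p = 0.0525) and rho = -0.35 (permutation p = 0.0925, adjusted p = 0.312). That r was -0.18 without the 2 farthest birds, -0.70 within the 3 day birds of -15 D and between -0.70 and 0.39 over the conditions. The GAPDH 3'/5' ratio was also raised in the lens eyes after 3 days of -15 D (0.10, 6 of 6 birds). Its r with the brightest EPHB2 set over 24 birds was -0.63, as description, and its part in the EPHB2 difference was not tested. The call of EPHB2 after 3 days of -15 D depended on how arrays were weighted, since with array weights the brightest set passed (-0.17, adjusted p = 0.0444), as did 2284 of all probe sets.

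EPHB3, another receptor of ventral embryonic retina in chick, had no mean difference beyond the spread between birds, and that spread was the widest of the family in 3 of the 4 conditions. The exception was 3 days of -15 D, where the dimmest sets of EPHB2 (SD 0.32) and EFNB1 (SD 0.30) varied more. Its means were 0.15 (SD 0.61) and -0.04 (SD 0.35) after 6 hours of -15 D and +15 D, and -0.03 (SD 0.25) and -0.10 (SD 0.57) after 3 days. Single birds ran from -0.79 to 1.34. After 6 hours of -15 D, 4 of 6 birds were below 0, and the mean was -0.08 without bird 3, the highest. The adjusted p was at least 0.967 in the 3 tested conditions.

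EPHB3 differences followed those of RPE and pigment genes from bird to bird. Over 24 birds the difference of EPHB3 and the mean difference of the 13 RPE and pigment genes had Pearson r = 0.94 and Spearman rho = 0.90, both with a permutation p of 1e-05, the smallest that 100000 permutations can give, and with adjusted p = 0.00016 and 0.00064 over 64 relations. The correlation was 0.90 without the 2 birds farthest from the median and between 0.92 and 0.98 within the 4 conditions. The RPE mean itself ran from -0.85 to 1.48 across birds after 6 hours of -15 D and from -1.34 to 0.75 after 3 days of +15 D. EPHB3 was also related to blood and immune genes (r = 0.85, adjusted p = 0.00016) and to choroid and sclera genes (r = 0.78, adjusted p = 0.00016). Within conditions these relations changed sign, from -0.78 to 0.97 for blood and from -0.41 to 0.97 for choroid. Genes of vessels and muscle (r = 0.66, permutation p = 0.00041, adjusted p = 0.00262) and retinal markers (r = -0.60, permutation p = 0.00355, adjusted p = 0.0189) also passed. Within conditions r ran from -0.24 to 0.93 for vessels and from -0.96 to 0.44 for retina. For retina rho was -0.26 (permutation p = 0.212, adjusted p = 0.503). The part of tissue makeup in the lens differences was not tested for this or the other members.

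Other members were related to these and other lists. Of the 64 relations examined, 14 had an adjusted permutation p under 0.05 for Pearson r. The brightest EPHB2 set followed the retinal markers (r = 0.74, permutation p = 5e-05, adjusted p = 0.000457, rho = 0.56 with permutation p = 0.00503 and adjusted p = 0.0268). Within conditions this correlation lay between 0.27 and 0.83, and it was 0.59 without the 2 farthest birds. The same EPHB2 set went against blood and immune genes (r = -0.53, permutation p = 0.00964, adjusted p = 0.0471), with r between -0.75 and -0.48 within conditions. There rho was -0.46 (permutation p = 0.0252, adjusted p = 0.115). The brighter EPHB6 set went the other way from choroid and sclera genes (r = -0.74, permutation p = 2e-05, adjusted p = 0.000256, rho = -0.64 with permutation p = 0.001 and adjusted p = 0.0107). There r was -0.67 without the 2 farthest birds and between -0.86 and -0.62 within conditions. The same EPHB6 set went against RPE and pigment genes (r = -0.70, permutation p = 0.00019, adjusted p = 0.00135; rho = -0.61, permutation p = 0.00161, adjusted p = 0.013). That relation was -0.62 without the 2 farthest birds and between -0.96 and -0.22 within conditions. Blood and immune genes (r = -0.74, permutation p = 7e-05, adjusted p = 0.00056, rho = -0.62) and genes of vessels and muscle (r = -0.62, permutation p = 0.00099, adjusted p = 0.00576, rho = -0.58) gave the same sign in all conditions. In the -15 D, 6 hour birds this EPHB6 set was lower in all lens eyes. There the RPE list differed by -0.85 to 1.48 between eyes, above 0 in 5 of 6 birds (r = -0.93 with this set). The choroid list differed by -1.95 to 3.62, above 0 in 4 of 6 birds (r = -0.78). The lists of vessels and muscle and of blood and immune cells were each above 0 in 3 of 6. The p-values of the brighter EPHB6 set rest in part on the -15 D birds, in which the other set of the same gene chose the family. They are therefore not independent of that choice. For the dimmer EPHB6 set r was -0.32 with RPE genes and -0.27 with choroid genes, as description.

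**Figure D2:**
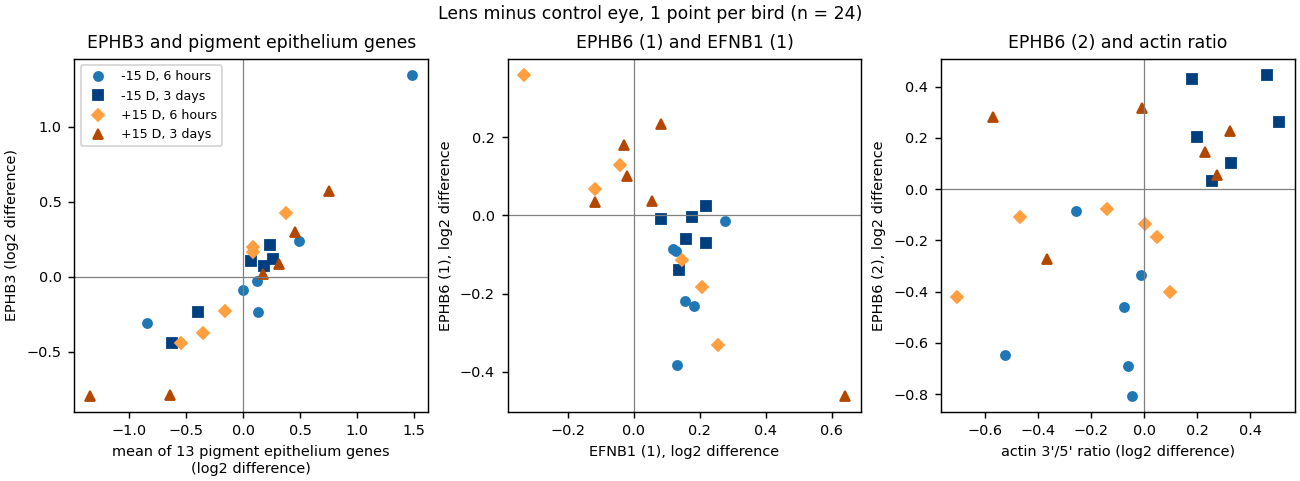
Lens minus control log2 differences with 1 point per bird (24) and the 4 conditions marked, probe sets numbered from the brightest: EPHB3 against the mean of 13 RPE and pigment genes, the brighter EPHB6 set against the brightest EFNB1 set, and the dimmer EPHB6 set against the actin 3'/5' ratio. EPHB3 lies along a line with the RPE genes (r = 0.94), and the other panels are more scattered (r = -0.77 and 0.49).

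EFNB1, a ligand of dorsal embryonic retina that signals in both directions, was higher in the lens eye behind the -15 D lens with its brightest probe set, at the same size after both durations, and did not pass the test. In this set 12 of 12 birds with a -15 D lens had the lens eye higher, with differences between 0.08 and 0.28. After 6 hours control eyes lay at 9.48, 9.64 and 9.86 and lens eyes at 9.61, 9.85 and 10.02 (lowest, median and highest), a mean difference of 0.17 (SD 0.06) given as description.

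In the 3 day set of -15 D birds the EFNB1 control eyes lay at 9.45, 9.58 and 9.60 and the lens eyes at 9.66, 9.70 and 9.81. Every lens eye was above every control eye. This was the only member in that position in any condition, so 1 of 13 after 3 days of -15 D, beside 0.935% of all probe sets. In the other conditions 0 of 13 members were without overlap, beside 0.099% of all probe sets after 6 hours of -15 D, 0.0443% after 6 hours of +15 D and 0.112% after 3 days of +15 D. The mean difference was 0.17 (SD 0.05, 95% interval 0.012 to 0.32, limma adjusted p = 0.308). Its spread between birds was small beside the pooled spread on which the test rests, as the +15 D birds varied more.

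With +15 D the same EFNB1 set was at 0.02 (SD 0.23) after 6 hours and 0.10 (SD 0.27) after 3 days, with 3 of 6 birds above 0 at each time and bird 1 of the second set at 0.64. The difference between the lens signs at 3 days was 0.06 (95% interval -0.15 to 0.28, adjusted p = 0.894). The change with duration of -15 D was -0.00011, and that of +15 D was 0.08 (95% interval -0.14 to 0.30). The lens eyes after 3 days of -15 D had the raised actin ratio given above, and those after 3 days of +15 D did not. With it as a covariate the EFNB1 difference after 3 days of -15 D was 0.25 and did not pass (adjusted p = 0.526).

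The next 2 EFNB1 sets had means above 0 in all 4 conditions, as the first did. The second set had means of 0.16 at 6 hours and 0.08 at 3 days of -15 D, and 0.09 and 0.04 with +15 D. The third had 0.13 and 0.14 with -15 D, and 0.13 and 0.11 with +15 D. The dimmest had 0.04 and 0.08 with -15 D, and 0.06 and -0.12 with +15 D. None passed in the 3 tested conditions.

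EFNB2, a ligand that like EFNB1 carries a tail for reverse signalling, was lower after 3 days of -15 D, again without passing. Its probe set lay at 5.19, 5.36 and 5.49 in control eyes and 4.86, 5.11 and 5.40 in lens eyes (lowest, median and highest), and the groups overlapped. The mean difference was -0.23 (SD 0.22, 95% interval -0.40 to -0.058, limma adjusted p = 0.191), below 0 in 5 birds, with bird 2 at 0.21. In the other conditions the means were 0.02 and -0.13 after 6 hours of -15 D and +15 D, and -0.03 after 3 days of +15 D. EFNB2 differences also ran against the actin ratio over 24 birds (r = -0.51, permutation p = 0.0103, adjusted p = 0.0471; rho = -0.57, permutation p = 0.0045, adjusted p = 0.0268). Without the 2 farthest birds r was -0.44, and within conditions it lay between -0.83 and 0.71, so the relation did not hold in each. With the GAPDH 3'/5' ratio EFNB2 had r = -0.49 over 24 birds, as description.

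**Figure D3:**
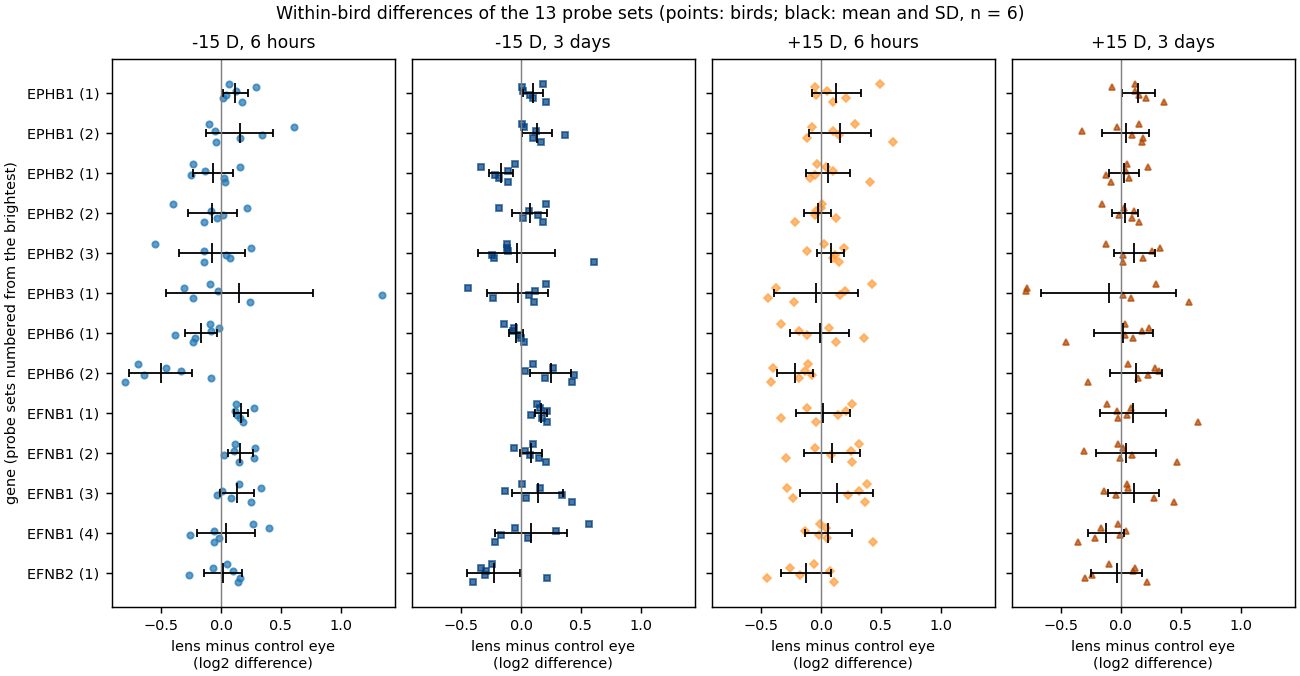
Lens minus control log2 difference of every member probe set in every bird, by condition, with the mean of 6 birds. The dimmer EPHB6 set, whose -15 D values chose the family, is below 0 in all birds at 6 hours. The brightest EFNB1 set and the brighter EPHB1 set are above 0 in all birds with a -15 D lens.

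Counted over the family, 0 of 13 probe sets passed in each comparison other than those that chose it. The share of all probe sets past the threshold was 0.00782% after 6 hours of +15 D, and at 3 days it was 0.0703% behind -15 D and 0.00521% behind +15 D. It was 0% for the lens sign at 3 days and at 6 hours, the second of which uses the contrast that chose the family. At unadjusted p under 0.05 the members were 2 of 13 after 6 hours of +15 D (EPHB1 and the dimmer EPHB6 set), beside 7.51% of all. After 3 days of -15 D they were 4 of 13 (EPHB2, EFNB1, EFNB2 and the dimmer EPHB6 set, whose value the choice of family used), beside 14.2% of all. There was 1 after 3 days of +15 D (EPHB1), beside 3.92%. For the lens sign at 3 days there was 1 (EPHB2), beside 9.26%, and for the change with duration of +15 D 1 (EPHB6), beside 3.47%. The median over the 13 member probe sets was 0.06 after 6 hours of +15 D, and at 3 days 0.08 behind -15 D and 0.04 behind +15 D. The all-array medians were -5.6e-05, 0.0096 and -0.0042. Probe sets of a gene read the same RNA, and EFNB1 alone has 4 of the 13, so these medians weigh the genes unequally. The -15 D median also includes the dimmer EPHB6 set that chose the family. Nothing about the family is read from these medians.

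Agreement between probe sets of a gene was closest among 3 of the 4 EFNB1 sets. Across the 24 birds, which share arrays and tissue makeup, the differences of the 3 brighter EFNB1 sets correlated at r = 0.77, 0.59 and 0.73, with the same sign in 22, 18 and 18 birds. Within the 3 day birds of -15 D these were only 0.23, -0.24 and 0.38, and in the other conditions they lay between 0.64 and 0.91. The fourth EFNB1 set correlated with them at -0.19, -0.021 and -0.20. The 2 EPHB6 sets correlated at 0.39 and had the same sign in 16 of 24 birds and in 3 of 4 condition means. Within conditions that r ran from -0.51 after 6 hours of +15 D, through 0.19 for 6 hours of -15 D and 0.73 for 3 days of -15 D, to 0.96 after 3 days of +15 D. The EPHB1 sets correlated at 0.26. For EPHB2 r was 0.037 between the brightest set and the next, 0.46 with the third and 0.54 between the last 2. In control eyes the signal levels themselves correlated at 0.78, 0.76 and 0.86 for the 3 brighter EFNB1 sets and at 0.18 for EPHB6.

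**Figure D4:**
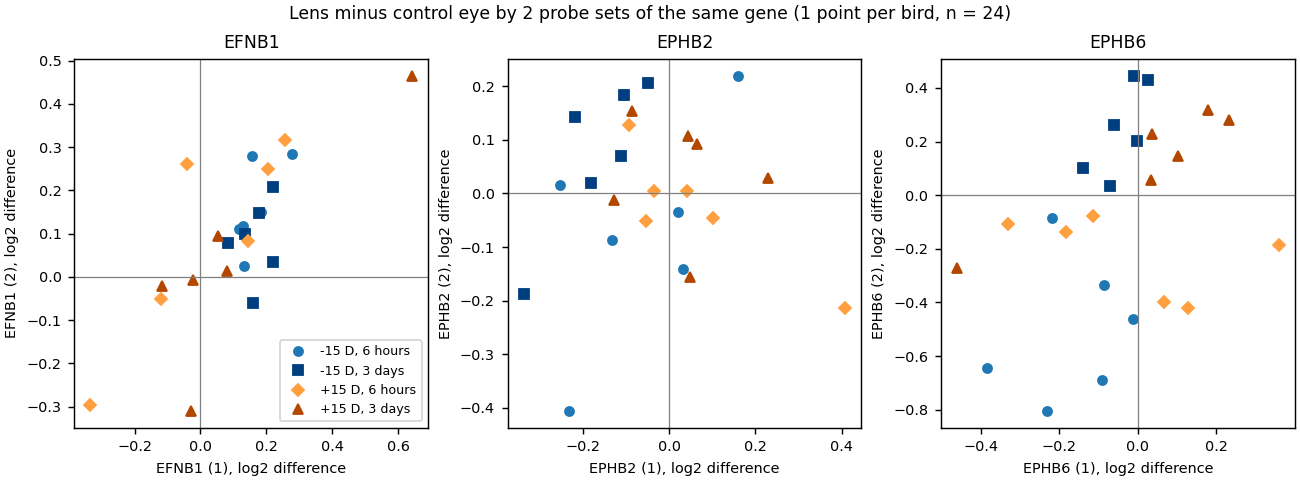
Lens minus control log2 difference of the second brightest probe set against the brightest of EFNB1, EPHB2 and EPHB6, with 1 point per bird in 24 birds. The EFNB1 sets lie along a line (r = 0.77 for the 2 brightest), while the EPHB6 sets (r = 0.39) and the EPHB2 sets (r = 0.037) do so less.

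Control eyes were compared between the 3 day and 6 hour birds. Each had no lens itself but was the other eye of a bird that wore one. None of the 13 members passed, beside 2.06% of all probe sets. At unadjusted p under 0.05 there was 1 member, the second EPHB2 set, at -0.17 (adjusted p = 0.282), beside 14.1% of all. The dimmer EPHB6 set stood at 4.74 (SD 0.54) at 6 hours and 4.67 (SD 0.14) at 3 days in 12 control eyes each, a difference of -0.07. It is given as description, because control eyes of the birds that chose the family are among them, and nothing is read from its place in the count. The 6 hour control eyes varied more among themselves, and the means differed by less than either SD. The set of birds is shared by all control eyes of a condition and cannot be told apart from time. Nor can age at collection or the duration of the lens on the other eye, which also differed between these birds.

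The genes whose 24 within-bird differences were most like those of a member, among 22386 candidate probe sets, were found by Pearson r as a description. For EPHB3 they were CTSH, a lysosomal protease (0.94), NPC2, a lysosomal cholesterol carrier (0.94), and DHRS3, a retinaldehyde reductase (0.94). For EPHB2 they were the amacrine cell transcription factor TFAP2B (0.90), the calcium channel CACNA1G (0.88) and the RNA-binding protein PCBP3 (0.88). The brighter EPHB6 set was most like HECW1, a ubiquitin ligase (0.89), NELL2, a secreted protein of neurons (0.87), and CDC23 of the anaphase-promoting complex (0.86). EFNB1 was most like the BMP antagonist NBL1 (0.80) and the deubiquitinase USP2 (0.77), with the unnamed locus LOC770653 (0.78) between them. EPHB1 (SLCO3A1, a transporter, 0.76) and EFNB2 (RUNDC3A, 0.77) had less close matches.

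Within the family, the brighter EPHB6 set ran against EFNB1 (r = -0.77, permutation p = 1e-05, adjusted p = 0.00016; rho = -0.71, permutation p = 0.00022, adjusted p = 0.00469). Within conditions r lay between -0.97 and 0.43 and was above 0 in both -15 D sets, and it was -0.57 without the 2 farthest birds. It also ran against EPHB3 (r = -0.76, permutation p = 4e-05, adjusted p = 0.000427; rho = -0.70, permutation p = 0.0002, adjusted p = 0.00469), with r between -0.95 and -0.22 within conditions. That value was -0.75 without the 2 farthest birds. Here too the p-values rest in part on the -15 D birds in which the dimmer EPHB6 set chose the family. EPHB3 and this EPHB6 set were related to RPE and pigment genes in opposite directions (r = 0.94 and -0.70). The part of tissue makeup in their relation was not tested.

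No probe set of the rest of the Eph and ephrin system passed in a lens comparison, where 0% to 0.0703% of all probe sets did. Counts of 0 are near that share, so nothing is read from them about these lists. The comparisons include those that chose the family. Of 17 other Eph receptors and ephrins 10 were found, and 0 of their 20 probe sets passed in the 8 contrasts of lens effects. Of 48 signalling partners of EphB and ephrin-B, such as the SRC family kinases and PDZ-domain adaptors, 45 were found, with 0 of 123 probe sets past the threshold. Of 19 genes that mark position in the retina 15 were found, with 0 of 28. Median differences lay between -0.07 and 0.05 for the other Ephs and ephrins, between -0.02 and 0.0022 for the partners and between -0.03 and 0.05 for the position genes, against all-array medians between -0.0100 and 0.02.

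In control eyes 1 of 20, 2 of 123 and 2 of 28 of these probe sets passed between 3 days and 6 hours, or 4 of the 162 distinct sets of the 3 lists (2.47%), near the 2.06% of all probe sets. CYP26A1, which degrades retinoic acid and marks a band across the embryonic chick retina, was lower by 1.10 in the 3 day birds (limma adjusted p = 0.000177). EFNA5, an ephrin of the A class, was lower by 0.40 with the dimmest of its sets (adjusted p = 0.0387), whose mean of 4.37 was below background. Its brighter sets were at -0.23 and did not pass. CASK, a scaffold of synaptic membranes, was higher by 0.40 in the 3 day birds (adjusted p = 0.0428). The kinase SRC was higher by 0.23 with a set at a mean of 3.02, below background (adjusted p = 0.0482). The SRC set at a mean of 9.02 was at -0.25 and did not pass, and neither did the set at 6.40. The remaining sets of these lists did not pass.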

How the data were processed

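Per the submitters' processing notes, the authors deposited log2 signals from RMA and worked with Partek; no version or setting is stated in these sources. The labels describe biotinylated cDNA, made with the NuGEN Ovation kit from 100 ng of RNA. RMA brings the arrays close to 1 distribution, with array medians here from 6.38 to 6.50, and compresses differences between dim signals. No depth applies to arrays, and their number limits the precision.

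The 153 control probe sets of 38535 were left out. The main test was limma 3.58.1 (R 4.3.3, lmFit and eBayes) on the 48 arrays, each bird being a block, with 20 residual degrees of freedom, two-sided, with Benjamini-Hochberg adjustment over 38382 probe sets and a threshold of 0.05. Control eyes were fitted alone. The bird numbers in the sample titles pair the eyes. The deviations of paired eyes from group means correlated over 0.1 in 20 of 24 birds (median 0.42, range -0.23 to 0.85). Gene names came from GEO's platform annotation, which named 1 gene for 27168 probe sets. Members, gene lists and tests were chosen with earlier results of these data known. Genes outside the family were named if past the threshold or, for each gene's brightest set (the brighter one for EPHB6), among the 3 most alike. Correlations used 100000 permutations, adjusted over 64 relations. Birds were permuted across conditions, so differences between conditions also enter these p-values. The fit was tested on simulated data. Alternatives left out the block, centred the arrays, filtered dim probe sets, weighted arrays, fitted only a condition's arrays and omitted each bird. Those with the actin ratio as a covariate or without 3 birds of wide differences were chosen after seeing the data. For control eyes the set of birds was also dropped or each lens power's birds fitted alone. Sequences of members are not used here.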

Additional observations from a re-analysis of the deposited data

Results flagged for a closer look

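Of 52 groups of 6 within-bird differences, 6 held a bird far from the others, where chance gives about 1 in 20 groups (5%). EPHB3 in bird 3 after 6 hours of -15 D was at 1.34, with the nearest bird at 0.24. The brighter EPHB6 set was at -0.46 in bird 1 after 3 days of +15 D, where the nearest was 0.033, and in the same bird the brightest EFNB1 set was at 0.64, with the nearest at 0.081. Both of these birds were among the 3 whose eyes differed widely over all probe sets. The dimmest EPHB2 set was at 0.61 in bird 1 after 3 days of -15 D, with the nearest at -0.11. The dimmest EFNB1 set was at 0.43 in bird 1 after 6 hours of +15 D, with the nearest at 0.053. EFNB2 was at 0.21 in bird 2 after 3 days of -15 D, with the nearest at -0.25.

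The dimmer EPHB6 set changed by 0.75 between 6 hours and 3 days of -15 D, because all 6 birds of the first set were below 0 and all 6 of the second above 0. This change was among those that chose the family, so it is given as description, and no other -15 D birds were there to test it in.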

How the results depend on the processing

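No alternative reversed a member's sign among called values. Of 2105 values of single probe sets under 35 settings, 2081 kept their side of the threshold and moved no further than the spread. The threshold was lost by 20 and gained by 1, and 3, all of EFNB1 with the actin covariate, moved by more than the spread. Values that did not pass could change sign. EPHB3 after 6 hours of -15 D was at 0.15, and at -0.08 without bird 3. The brightest EFNB1 set after 3 days of +15 D was at 0.10, and at -0.007 without bird 1. After 6 hours of -15 D the members called were 0 without the replicate block, with probe sets above the median only (where the dimmer EPHB6 set is not tested), with only the arrays of the condition, with the actin covariate and without the birds of wide differences. Leaving out 1 bird gave 0 to 1, with EPHB6 called only without bird 2. Its value lay between -0.59 and -0.44 on omission of a bird. For the change with duration of -15 D the count was 0 without the replicate block, above the median, with the actin covariate and without those birds, and 0 to 1 on omission of a bird (1 in 4 of 12 omissions), with values from 0.69 to 0.83. After 3 days of -15 D it was 1 with array weights, EPHB2. The calls over all probe sets also varied, from 0 without the block to 296 with array weights for 6 hours of -15 D (15 as reported), from 0 to 2284 for 3 days of -15 D (27), from 0 to 387 for its change with duration (4) and from 49 to 2301 for control eyes (791). The cause of these shifts was not tested. With the pairing of eyes by bird removed, no other count of members changed.

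The main limits are 6 birds a condition, a dimmer EPHB6 set close to background, and probe sets of a gene that run apart. The dimmest EFNB1 set ran apart from the other 3, and so did the 2 brightest of EPHB2. The means of the 2 EPHB6 sets differed in sign after 3 days of -15 D.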
